A study of Homo sapiens with 6 samples.

Results

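EPCAM and the matriptase system are described here as 6 genes: EPCAM, the proteases ST14 (matriptase), PRSS8 (prostasin) and TMPRSS4, and the inhibitors SPINT1 and SPINT2. They were chosen by symbol, 6 of the 54607 rows of the deposited expression table. Each symbol had a single row, and all 6 rows were among the 13611 that were high enough to test (a mean of at least 1 FPKM, the fragment count scaled by transcript length and library size, over the 6 libraries). The RNA came from H358, an established epithelial cell line from a human non-small cell lung cancer. In the knockdown group, lentiviral short hairpin RNAs were directed at ESRP1 and ESRP2, the epithelial splicing regulators, together. The other group carried a control knockdown. The 2 groups had 3 libraries each, described as biological triplicates, and n = 3 in every mean ± SD. Because the groups carried different constructs, what a construct does by itself and what loss of ESRP does cannot be told apart.

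Matriptase is a serine protease anchored in the epithelial cell membrane. It works with prostasin, a protease held on the outer surface by a lipid anchor, and each can promote the activation of the other. The membrane inhibitors HAI-1 (SPINT1) and HAI-2 (SPINT2) carry Kunitz domains that block both enzymes, and HAI-1 also helps matriptase to reach the cell surface. EPCAM is an adhesion protein that binds claudin-7, and matriptase cleaves it when HAI-2 is missing from intestinal epithelium.

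TMPRSS4, PRSS8, SPINT2 and ST14 fell in the knockdown by between 13.2% and 23.7% of their control FPKM. SPINT1 was lower by 8.20%, a call that several alternatives removed, and EPCAM differed by 1.78%, which did not pass the test. In all, 5 of the 6 members fell and none rose in limma (adjusted p below 0.05). Of all 13611 tested rows 10.2% fell, 6.54% rose and 16.7% were called in either direction. That background holds many rows of lower level than the members, the least abundant of which lay above 76.3% of tested rows. At a filter of 5 FPKM, 1321 of 9877 rows fell and 22.4% were called in either direction. For the same 5 members each knockdown library lay below each control library, which held for 20.9% of tested rows (38.1% of rows did not overlap in either direction). The median log2 fold change of the 6 members was -0.22, beside -0.002 over all tested rows. Fold changes are differences of log2(FPKM + 1), knockdown minus control. In bulk RNA, fewer cells that express a gene and less of its RNA per cell cannot be told apart.

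The targets of the hairpins were low in the labelled libraries, ESRP1 at 16.3% and ESRP2 at 54.2% of their control FPKM. FPKM carry no read totals, so total depth is unknown, and the steps of single reads among low values put the relative depth of the libraries between 0.992 and 1.66 times that of control replicate 1. All 5 epithelial markers (KRT7, KRT8, KRT18, KRT19 and CDH1) were called lower, with a summed level of 2630 to 2711 FPKM in the knockdown and 3081 to 3181 FPKM in the control. The call of KRT8 was lost with a replicate block (limma adjusted p = 0.062), with the block and a GC and length correction together (0.079) and without the filter on low values (0.052). The lung lineage factor NKX2-1 had means of 47.8 FPKM (knockdown) and 48.2 FPKM (control), and the surfactant and secretory markers SFTPB and SCGB1A1 were listed at 0. Summed levels were 3.26 to 3.39 FPKM in the knockdown and 4.07 to 4.54 FPKM in the control for 6 leukocyte markers. LAPTM5 was the 1 leukocyte marker with a mean above 1 FPKM, and PTPRC and CD3E were near 0. LAPTM5 was called lower (-0.31 on the log2 scale, limma adjusted p = 0.035). It lost the call with a replicate block (0.087), without the filter (0.097) and in 5 of 6 fits that left out 1 library. Summed levels in the knockdown and the control were 1.60 to 1.85 and 1.54 to 1.66 FPKM for 4 of 5 endothelial markers. For 5 fibroblast markers they were 8.67 to 11.1 and 8.38 to 10.2 FPKM, nearly all of it COL1A1, with COL1A2 and DCN near 0. The part of the lower epithelial markers in the results that follow was not tested.

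**Figure D1:**
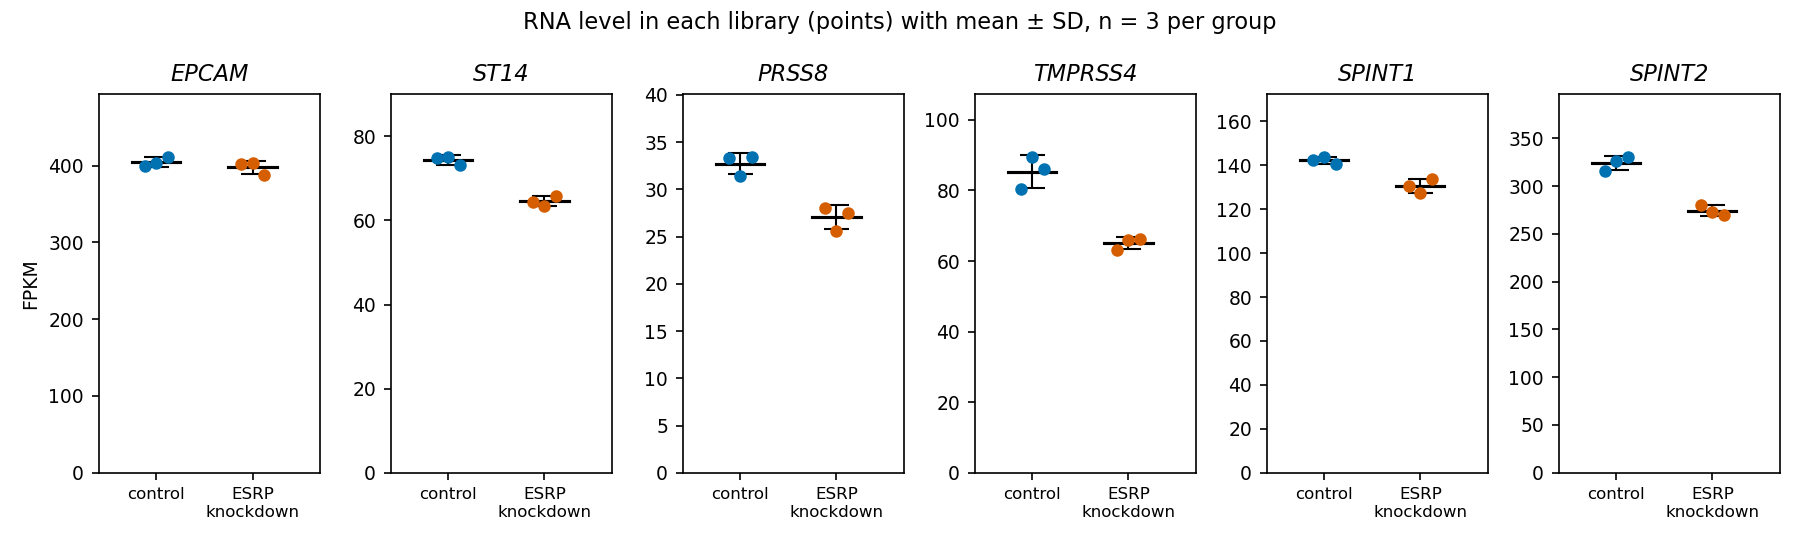
RNA level (FPKM, linear axis from 0) of the 6 members in each library, with blue points for control, orange points for the ESRP knockdown, long bars for means and whiskers for SD (n = 3). The groups overlap only for EPCAM, and TMPRSS4 has the largest relative gap, with means of 65.1 FPKM (knockdown) and 85.4 FPKM (control).

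EPCAM, the adhesion protein that gives the group its name, was the most abundant of the 6, above 98.6% of tested rows in mean level. Its gene (ENSG00000119888) lies on hg19 chromosome 2 from 47572297 to 47614740 on the plus strand. The knockdown libraries held 402, 403 and 388 FPKM and the control libraries 399.6, 404 and 412 FPKM. The groups overlapped, since knockdown replicates 1 and 2 lay above control replicate 1. Means were 398 ± 8.34 and 405 ± 6.13 FPKM, a difference of -0.03 on the log2 scale (95% interval -0.09 to 0.04, limma adjusted p = 0.54).

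Of the 3 protease genes, TMPRSS4 fell the most. It encodes a membrane-anchored serine protease known for high levels in several carcinomas, and it lies at hg19 chromosome 11 from 117947753 to 117992605 (ENSG00000137648, plus strand). The knockdown libraries held 63.1, 66.1 and 66.1 FPKM and the control libraries 80.4, 89.6 and 86.1 FPKM. The knockdown libraries sat close together below the control libraries, which spread more widely. The means were 65.1 ± 1.73 and 85.4 ± 4.62 FPKM, or -0.38 on the log2 scale (SE 0.043, limma adjusted p = 0.0017), with 2.1% of tested rows lower.

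ST14, the matriptase gene (ENSG00000149418, hg19 chromosome 11 from 130029457 to 130080356, plus strand), went from 74.9, 75.2 and 73.1 FPKM in the control libraries to 64.5, 63.4 and 65.8 FPKM in the knockdown libraries. The libraries of each group lay within a narrow band and the bands did not touch. With means of 74.4 ± 1.14 and 64.6 ± 1.19 FPKM, ST14 changed by -0.20 on the log2 scale (SE 0.027, limma adjusted p = 0.0037).

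PRSS8, which encodes prostasin, was the least abundant of the 6 and still above 76.3% of tested rows. It lies at hg19 chromosome 16 from 31142754 to 31147151 on the minus strand (ENSG00000052344). Its control libraries held 33.3, 31.4 and 33.5 FPKM and its knockdown libraries 28.0, 25.6 and 27.5 FPKM. All knockdown values lay below all control values. The means of 32.7 ± 1.14 and 27.0 ± 1.25 FPKM differed by -0.27 on the log2 scale (SE 0.043, limma adjusted p = 0.0072).

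Both inhibitor genes were more abundant than any of the 3 protease genes per length of transcript. SPINT2, which encodes HAI-2 (ENSG00000167642, hg19 chromosome 19 from 38755098 to 38783253, plus strand), was at 316, 326 and 331 FPKM in the control libraries and at 280.5, 273 and 269 FPKM in the knockdown libraries. The lowest control library stood well above the highest knockdown library. Means went from 324 ± 7.54 to 274 ± 5.71 FPKM, which is -0.24 on the log2 scale (SE 0.028, limma adjusted p = 0.0021).

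SPINT1, which encodes HAI-1 (ENSG00000166145, hg19 chromosome 15 from 41136241 to 41150405, plus strand), had the smallest called change. The control libraries held 142, 144 and 141 FPKM and the knockdown libraries 131, 128 and 134 FPKM. The groups did not overlap, but the gap between them was narrow. Means were 142 ± 1.58 and 131 ± 3.16 FPKM, or -0.12 on the log2 scale (SE 0.027, limma adjusted p = 0.022). Leaving out any single library other than knockdown replicate 3 ended the call, in 5 of 6 such fits, with limma adjusted p up to 0.079. It was also lost with the replicate number as a block (adjusted p = 0.074) and after a correction for GC content and transcript length, which took the log2 fold change to -0.07 (adjusted p = 0.088).

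The SPINT1 promoter is shown as that of an inhibitor gene, the 1 of 6 members matched in the RefSeq promoter table (build GRCh38.p14). These are the 250 bases before the first of its 2 listed starts, on the plus strand at chr15:40843798-40844047, with GC boxes (GGGCGG, both strands) in capitals. EPCAM, ST14, PRSS8, SPINT2 and TMPRSS4 were not matched.
SPINT1: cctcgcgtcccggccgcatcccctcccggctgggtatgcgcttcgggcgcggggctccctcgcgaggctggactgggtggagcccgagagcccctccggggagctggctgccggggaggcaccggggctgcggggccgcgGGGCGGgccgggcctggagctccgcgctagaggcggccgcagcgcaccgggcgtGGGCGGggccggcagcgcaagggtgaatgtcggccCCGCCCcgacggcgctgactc
This window is 80.4% G or C, beside a median of 58.0% over 35116 promoter windows of that length. It holds 3 GC boxes, and 42.6% of all windows hold at least 1. The letters of a grainyhead site (AACCNGTT, in 1.49% of windows) and of an E-box (CACCTG, in 17.5%) were not found in this window on either strand.

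Several members have GC-rich transcripts. Taking the longest GENCODE v29 transcript of each gene, GC content was 62.8% for ST14, 62.7% for PRSS8, 60.4% for SPINT1 and 55.6% for SPINT2, above the median of 47.8% for tested rows, and 47.0% for EPCAM and 45.7% for TMPRSS4. A correction that removed the trends on GC and length from every library left ST14 at -0.13 on the log2 scale (limma adjusted p = 0.011), PRSS8 at -0.21 (0.011) and SPINT2 at -0.20 (0.0028). TMPRSS4 was at -0.39 (0.0017). Without the correction 60.9% of all calls were lower (1388 falls and 890 rises over 13611 rows). With it the share was 51.0% (1282 falls and 1230 rises over the 13150 rows with GC and length values).

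**Figure D2:**
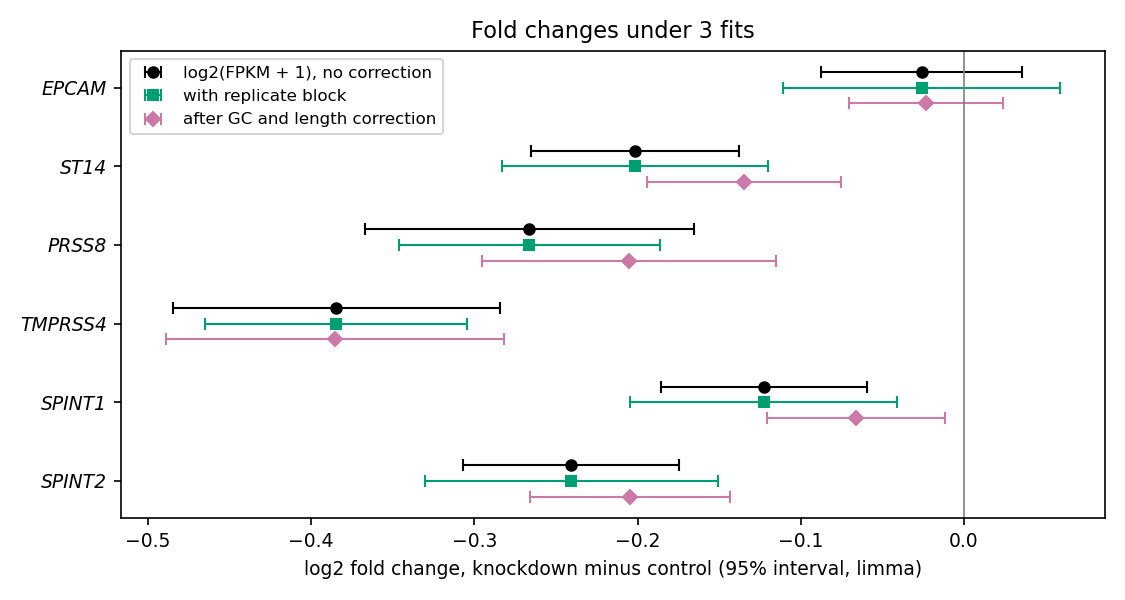
Log2 fold change (knockdown minus control) of the 6 members with 95% intervals from limma, without correction (black circles), with a replicate block (green squares) and after the GC and length correction (pink diamonds). TMPRSS4 stays near -0.38 in all of them, SPINT1 moves from -0.12 to -0.07 after the correction, and the EPCAM intervals include 0.

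The order of levels showed where neighbours met. In the control libraries it ran from EPCAM through SPINT2, SPINT1, TMPRSS4 and ST14 down to PRSS8, and no neighbours in that order overlapped. In the knockdown libraries TMPRSS4 and ST14 overlapped, with a ratio of means of 1.01 where the control ratio was 1.15. The order was otherwise the same in both groups.

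Ratios between genes were taken within each library, since a ratio of FPKM does not depend on how the library was scaled. Trends on GC content and transcript length need not cancel in a ratio, and the ratios given here are of uncorrected FPKM. The GC and length correction took ST14 from -0.20 to -0.13, SPINT1 from -0.12 to -0.07 and EPCAM from -0.03 to -0.02 on the log2 scale. The question was whether proteases, inhibitors and EPCAM moved in proportion. Of 9 ratios, 6 did not overlap between groups. Each of these 6 had an exact two-sided permutation p of 0.10, the smallest that 3 against 3 allows. After Benjamini-Hochberg adjustment over the 9 it was 0.15, so none could pass the threshold. The ratios reuse the same members, so they are not separate observations. How often ratios of other genes do not overlap was not computed. Among single tested rows, 38.1% did not overlap.

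Matriptase to HAI-1 was among the tightest of these ratios. ST14/SPINT1 was 0.494, 0.497 and 0.491 in the knockdown libraries and 0.526, 0.522 and 0.519 in the control libraries. Every knockdown ratio was lower, by a mean of -0.08 on the log2 scale. PRSS8/SPINT1 went from 0.230 ± 0.0103 to 0.207 ± 0.00688, and SPINT1/SPINT2 was higher in all knockdown libraries, at 0.477 ± 0.0175 against 0.439 ± 0.0127.

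Against HAI-2 the ratios of matriptase and prostasin overlapped. ST14/SPINT2 was 0.236 ± 0.00764 in the knockdown and 0.230 ± 0.00809 in the control (exact permutation p = 0.50), and PRSS8/SPINT2 was 0.0986 ± 0.00419 and 0.101 ± 0.00452 (exact permutation p = 0.60). ST14/PRSS8 also overlapped, at 2.39 ± 0.0860 and 2.28 ± 0.107 (exact permutation p = 0.20). TMPRSS4/SPINT2 did not, at 0.238 ± 0.0110 in the knockdown and 0.263 ± 0.0104 in the control. A p that misses the threshold does not show that these genes moved alike.

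Relative to EPCAM, both ST14 and SPINT2 were lower in each knockdown library than in any control library. SPINT2/EPCAM was 0.698, 0.676 and 0.694 in the knockdown and 0.790, 0.807 and 0.803 in the control. The 2 sets of ratios lay far apart relative to their spread. ST14/EPCAM was 0.162 ± 0.00632 in the knockdown and 0.184 ± 0.00539 in the control.

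**Figure D3:**
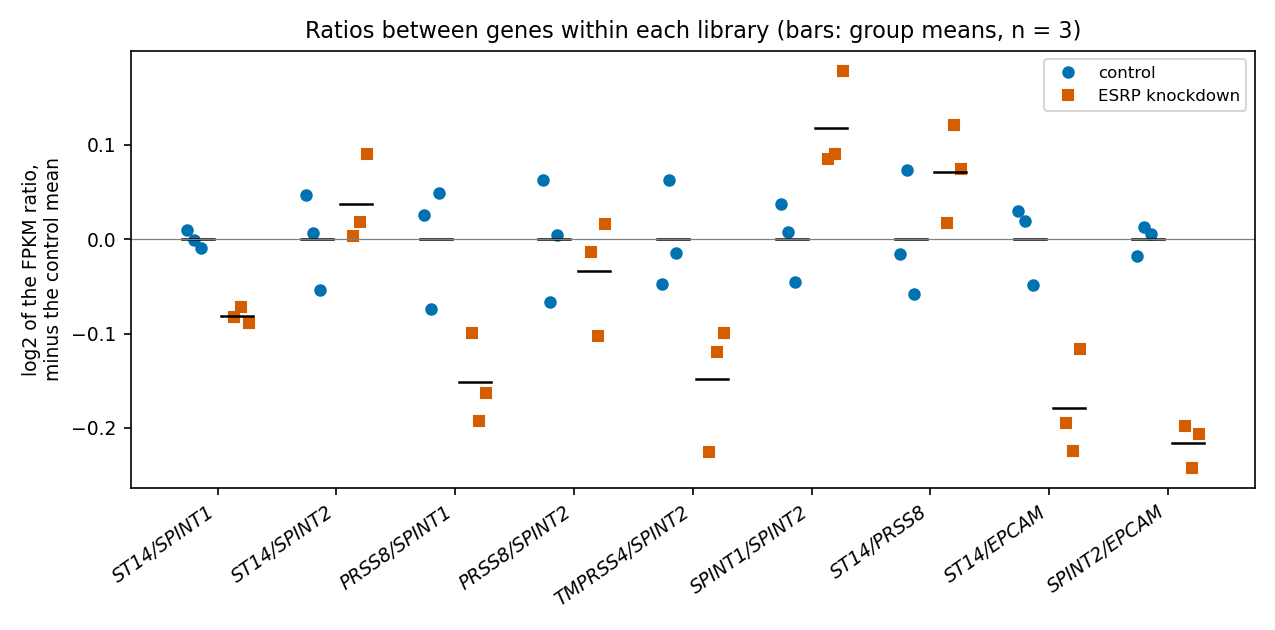
Log2 ratio of the FPKM of 2 genes within each library, minus the mean of the control libraries, for 9 pairs (blue circles control, orange squares knockdown, black bars group means, n = 3). The groups are apart for 6 pairs, by -0.22 for SPINT2/EPCAM and 0.12 for SPINT1/SPINT2, and overlap for ST14/SPINT2, PRSS8/SPINT2 and ST14/PRSS8.

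Other genes of the pathway were taken from 5 lists. Most of the 18 other membrane-anchored serine proteases were scarcely present: 4 were tested, 1 fell and none rose (median log2 fold change -0.14), and TMPRSS2, TMPRSS3 and PRSS21 were listed at 0. TMPRSS11E, a protease of squamous epithelia, was the most abundant of them, with 21.7 FPKM under knockdown and 22.4 FPKM under control (limma adjusted p = 0.58). TMPRSS13 went from 3.07 ± 0.417 to 1.94 ± 0.336 FPKM (-0.47 on the log2 scale, limma adjusted p = 0.027). This call ended with a replicate block (0.065) and when knockdown replicate 2 or 3 or control replicate 2 or 3 was omitted (adjusted p up to 0.091).

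Of 12 secreted serine proteases 5 were tested, of which 2 fell and none rose, with a median of -0.28. KLK6, a kallikrein, went from 79.2 ± 2.38 to 66.3 ± 0.839 FPKM (limma adjusted p = 0.0022). PRSS22, a tryptase of airway epithelium, went from 22.6 ± 0.988 to 17.7 ± 0.939 FPKM (limma adjusted p = 0.0045). PRSS23, the most abundant, had means of 418 FPKM (knockdown) and 402 FPKM (control) and did not pass (limma adjusted p = 0.33).

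Of 17 other inhibitors of serine proteases 11 were tested, and 2 fell and 2 rose, around a median of -0.05. SLPI, a secreted inhibitor of leukocyte proteases, had the largest change of this list: its libraries held 17.0, 18.1 and 18.7 FPKM in the knockdown and 26.2, 28.3 and 27.8 FPKM in the control. It fell by 0.59 on the log2 scale (limma adjusted p = 4.8e-04). SERPINB1, an inhibitor of neutrophil proteases, went from 61.3 ± 1.74 to 47.4 ± 2.74 FPKM, by -0.36 on the log2 scale. The 2 that rose were TFPI, a Kunitz inhibitor of coagulation, by 0.22 on the log2 scale (limma adjusted p = 0.0055), and SERPINE2, which inhibits prostasin among other proteases, by 0.21 (limma adjusted p = 0.010). APLP2, a Kunitz-containing relative of the amyloid precursor, was the most abundant with 309 ± 2.79 FPKM under knockdown and 317 ± 1.71 FPKM under control (limma adjusted p = 0.33).

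Among 16 substrates of these proteases and the receptors of such substrates, 12 were tested, 2 fell and 1 rose, with a median of -0.01. PLAU, the urokinase precursor that matriptase can activate, was the most abundant of them and went from 219, 217 and 221 FPKM in the control libraries to 167, 166 and 166 FPKM in the knockdown libraries. The libraries of a group were nearly equal and the groups lay far apart (-0.40 on the log2 scale, limma adjusted p = 1.4e-04). PDGFD, a growth factor precursor present at a low level, rose from 2.32 ± 0.0735 to 3.33 ± 0.107 FPKM (limma adjusted p = 0.0060). IGFBP7 changed by -0.35 on the log2 scale (limma adjusted p = 0.024). Its call ended with a replicate block and when knockdown replicate 1 or 3 or control replicate 1 or 3 was omitted (adjusted p up to 0.089).

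Of 16 partners of EPCAM and genes of its proteolysis 15 were tested, 6 fell and none rose, with a median of -0.09. FHL2, which binds the intracellular fragment of EPCAM, was at 22.2, 21.1 and 21.2 FPKM in the knockdown libraries and 31.2, 33.4 and 34.4 FPKM in the control libraries. Its groups were well apart (-0.59 on the log2 scale, limma adjusted p = 3.6e-04). E-cadherin (CDH1), also counted above among the epithelial markers, changed by -0.39 on the log2 scale. The tetraspanin gene CD9 went from 152 ± 5.78 to 123 ± 8.87 FPKM (limma adjusted p = 0.0091). APH1A, a gamma-secretase subunit, changed by -0.14 on the log2 scale. The call of APH1A was lost with a replicate block and the GC and length correction together (limma adjusted p = 0.056). CTNNB1, which encodes beta-catenin and was the most abundant of this list, changed by -0.13 on the log2 scale (limma adjusted p = 0.018). CTNNB1 lost the call when control replicate 1 or 2 was omitted (adjusted p up to 0.065) and without the intensity trend (0.056). The remaining call was PSEN2, a further gamma-secretase subunit, with -0.20 (limma adjusted p = 0.040), named after its values were seen. It lost the call when any single library other than knockdown replicate 3 was omitted (adjusted p up to 0.12), with a replicate block (0.094), without the filter on low values (0.090) and after the GC and length correction (0.062). CLDN7, the claudin that EPCAM binds, went from 63.1 ± 1.92 FPKM to 59.5 ± 1.38 FPKM without passing the test (limma adjusted p = 0.12). It too was named after its values were seen.

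**Figure D4:**
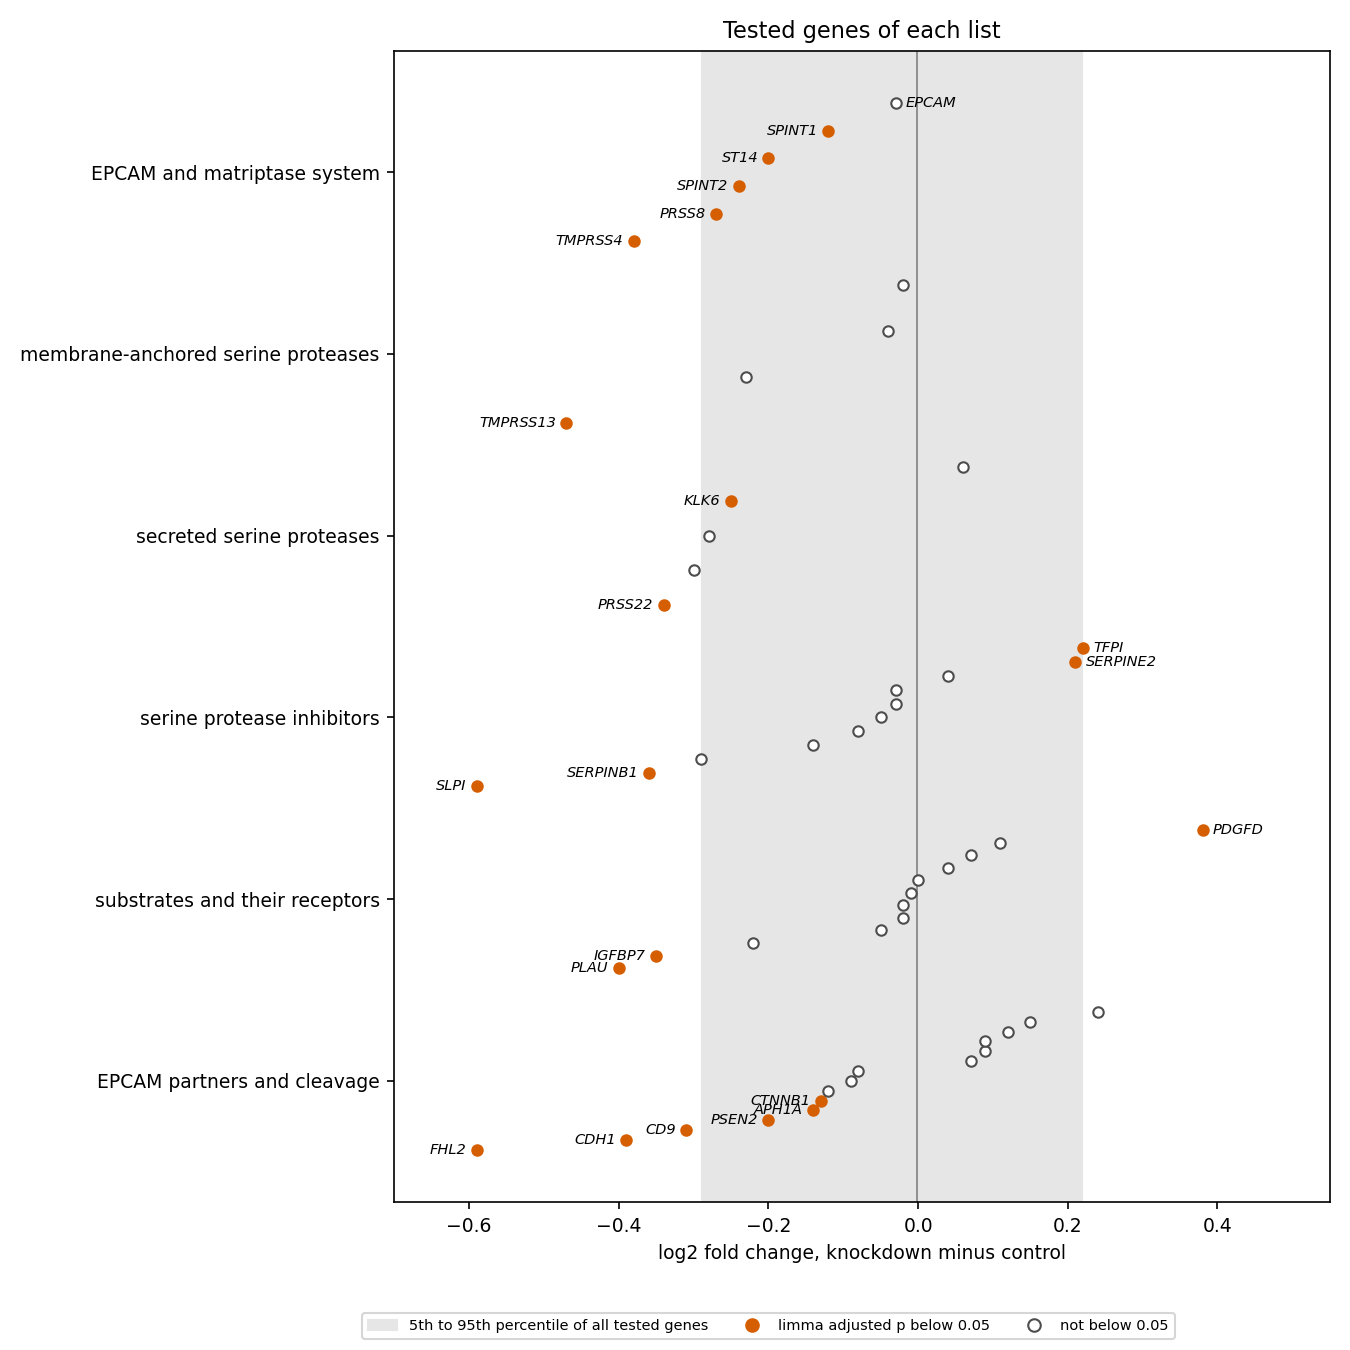
Log2 fold change (knockdown minus control) of each tested gene of the 6 members and of 5 pathway lists, with filled points for a limma adjusted p below 0.05 and a grey band from the 5th to the 95th percentile of all tested genes (-0.29 to 0.22). TMPRSS4 is the 1 member outside the band, and the lists of inhibitors and of substrates hold calls on both sides of 0.

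Genes with the most similar pattern were sought by the root mean square difference between centred log2(FPKM + 1) values over the 6 libraries, a description with no test. C17orf58 was among the 2 closest to SPINT1 (0.008). CREB3 was closest to EPCAM (0.007), PDXDC1 to ST14 (0.008) and BAIAP2 to SPINT2 (0.009). The nearest to PRSS8 was EPAS1 (0.020) and the nearest to TMPRSS4 was DNAJA4 (0.025). PDXDC1 has near-identical copies in the genome that share reads, so its value is uncertain. None of the 6 members was among the 2 closest genes of another member. None of the rows that overlapped a member in the deposited positions had a mean of 1 FPKM or more.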

How the data were processed

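The deposited values are FPKM for each Ensembl gene and library, and the submitters' processing notes name TopHat 1.4.1, Cuffdiff 2.2.0 and hg19. The libraries were made with a stranded kit per the labels' protocols. Neither the gene annotation's release nor the strand setting is given in the sources used here. The table has 54607 rows, 27772 of them at 0 throughout. Deposited starts were raised by 1.

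The groups were compared with limma 3.58.1 (R 4.3.3) (intensity trend, two-sided) on log2(FPKM + 1), over the 13611 rows whose mean reached 1 FPKM, with Benjamini-Hochberg adjustment over all of them and a threshold of 0.05. Such fold changes understate changes of low genes. The steps were tested on simulated data. Ratios used exact permutation tests (scipy 1.17.1). GC content and length came from GENCODE v29, matched for 96.6% of tested rows. Alternative fits used a replicate block, 0.1 as pseudocount, other filters and scalings, no trend, the GC and length correction, and leaving out each library. The labels do not say that replicate numbers pair libraries, so the main fit took no pairs. Deviations of same-numbered libraries from their group means had correlations of -0.0171, 0.0625 and 0.0701. Those of differently numbered libraries ranged from -0.142 to 0.0874. With 3 libraries per group, such values cannot decide whether the libraries were paired.

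Members and lists were chosen with earlier results of these data known. Named genes were the 6 members, and from each list the most abundant gene, up to 5 called genes by smallest adjusted p and called genes against the list's direction, with the 2 genes of most similar pattern to each member. Some results are not reported here.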

Additional observations from a re-analysis of the deposited data

How the results depend on the processing

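Under 15 alternative fits, all 90 member fold changes kept their direction. ST14, PRSS8, SPINT2 and TMPRSS4 stayed called in each of them, and EPCAM in none. SPINT1 was not called with a replicate block (log2 fold change -0.12), without the intensity trend (-0.12, limma adjusted p = 0.063), after the GC and length correction (-0.07) and with that correction and the block together (-0.07, adjusted p = 0.17). When 1 library was left out, the fold change of SPINT1 ranged from -0.14 to -0.11, and its call was lost in 5 of those 6 fits.

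With a replicate block 942 rows fell and 491 rose, beside 1388 and 890 without it, and without a filter 916 fell and 497 rose. Leaving out 1 library gave 761 to 1133 that fell and 403 to 850 that rose. In the list of membrane-anchored proteases the 1 fall became 0 with the block, with or without the correction, and at a filter of 5 FPKM. After TPM scaling it became 2, with TMPRSS9 added. Without a filter TMPRSS13 was lost (adjusted p = 0.097) and TMPRSS6 and TMPRSS9 were the 2 called. Leaving out a library gave 0 to 1. Among secreted proteases KLK10 was added after TPM scaling (limma adjusted p = 0.046), without the trend (0.037) and without knockdown replicate 1 (0.044). In that list, 2 to 3 fell when a library was left out. The 2 falls among inhibitors became 4 at a filter of 5 FPKM, after TPM scaling and after the correction, and 2 to 4 when a library was left out. TFPI2 was also added with the block, alone (limma adjusted p = 0.038) or with the correction (0.027), and with a pseudocount of 0.1. The 2 falls among substrates became 1 with the block, with or without the correction, without a filter and at 5 FPKM, and 1 to 2 when a library was left out, and the 1 rise became 0 at 5 FPKM. Among EPCAM partners the 6 falls became 5 with the block, without a filter, at 5 FPKM, without the trend and after the correction, and 4 with block and correction together, and leaving out a library gave 4 to 6. In the same list 1 rise appeared with the block, with or without the correction, with a pseudocount of 0.1, after median-ratio scaling, without the trend and after the correction. These were ADAM10 under the block, NCSTN after the correction alone and TSPAN8 otherwise. The cause of these differences was not tested, apart from genes that a filter removed. The sign of NKX2-1 (0.05 after the correction, with or without the block, and -0.03 to 0.01 when a library was left out) reversed, and it was not called in them. Of the 9 ratios, all of uncorrected FPKM, 8 kept their direction in each alternative taken for ratios, paired by replicate number or not. PRSS8/SPINT2, whose groups overlapped, ranged from -0.07 to 0.00 on the log2 scale when a library was left out, and its sign turned without knockdown replicate 2. Depth limits the low genes most.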
